A study of Mus musculus with 8 samples.

Results

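The genes described here are 41 genes of the endoplasmic reticulum (ER) that fold, import, check and return secretory proteins, out of 35715 gene names on the array. They were chosen by function, and each is read by its brightest probe over the 8 arrays among probes that are not controls. All 41 were well above background on all 8 arrays, so none dropped out at the filter on dim probes that left 21368 genes to test. The tissue was ileum of female mice, and its RNA was hybridised to Agilent arrays in 1 colour. The doxycycline group (n = 4) carried Rosa26rtTA/+ with Hprt Myc-Tnk1tg, received doxycycline intraperitoneally at 50 µg per g body weight in 100 µl, and was examined 24 hours later. The saline group (n = 4) has the same strain entry, received 100 µl of 0.9% NaCl, and is also called wild type in its titles. Both groups therefore carry the activator and the transgene by their strain entry. Age is not given in the sources used here, and doxycycline was given only to mice listed with the transgene, so an effect of the drug itself cannot be told apart from that of Tnk1. The labels do not say that each array holds its own animal. The p-values here therefore rest on the scatter among 8 samples, some of which may be technical.

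The ER imports new secretory and membrane proteins through the Sec61 channel, cuts off their signal peptides, folds them with chaperones and disulphide enzymes, and sends failed proteins back to the cytosol for degradation. When unfolded proteins build up, the sensors IRE1, ATF6 and PERK raise the expression of chaperones and degradation genes, a programme known as the unfolded protein response. In the gut, goblet, Paneth, enteroendocrine and plasma cells carry a heavy secretory load, and goblet cells have a second IRE1, encoded by Ern2.

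Levels are log2 processed intensities minus the 75th percentile of the array, so 0 is that percentile and a difference of 1 is 2-fold. A change was called at a limma adjusted p under 0.05 over all genes tested. The 2 Tnk1 probes did not move alike. The 5′-side probe read 0.34, 0.81, 0.82 and 0.60 with doxycycline, against -1.93, -2.02, -1.91 and -2.74 with saline (log2 difference 2.79, adjusted p = 4.17e-04 over kept probes). The brighter probe, which stands for Tnk1 among the genes tested, read 2.42, 2.19, 2.02 and 1.89 with doxycycline, against 2.57, 2.69, 2.83 and 2.23 with saline (-0.45, adjusted p = 0.143). Only the first of them is higher with doxycycline, and which of them reads the transgene is not given in the sources used here. Hprt, named in the strain entry as the locus of the transgene, read 4.21, 4.24, 4.40 and 4.51 with doxycycline, against -2.23, -0.88, -1.95 and -1.63 with saline (64.6-fold higher, adjusted p = 4.43e-05), the largest rise of all genes tested. The strain entry is the same for both groups while the saline titles say wild type, so a difference in genotype and the effect of doxycycline cannot be told apart, in any comparison given here. All 8 arrays lie on 1 slide, with a row of positions for each group, and the effects of row and of treatment cannot be told apart. Between 54.8% and 57.0% of probes were well above background on the doxycycline arrays, against 39.7% to 43.1% on the saline arrays. As a marker of the labelled tissue, Fabp6, the gene of the ileal bile acid binding protein, averaged 9.25 ± 0.26 on doxycycline arrays and 9.45 ± 0.21 on saline arrays (SD, n = 4 each).

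Of the 41 ER genes, 1 rose and 3 fell with doxycycline, which is 2.44% and 7.32% of them. Over all genes tested 5.94% rose and 7.89% fell, so the share of ER genes that fell lies near that of the array as a whole. The calls were the rise of Herpud1 and the falls of Ern2, Creb3l1 and Edem1. The doxycycline arrays lay wholly below the saline arrays for 5 ER genes (12.2%, against 13.0% of all genes) and wholly above for 1 (2.44%, against 8.83%). An unadjusted p under 0.05 was found for 8 ER genes (19.5%), against 31.4% of all genes. Within 1.5-fold lay 35 of 41, and this share was not counted over all genes. Differences of the ER genes leaned downward, with 33 of 41 below 0 against 48.7% of all genes. Their median log2 difference was -0.22, against 0.02 over all genes. That median is about the size of the SD between arrays of the ER genes' median level (0.22). Leaving out single arrays moved it between -0.28 (without doxycycline 2) and -0.07 (without saline 4). Its place relative to all genes depended on the processing. With normexp background the median was -0.11 for ER genes and -0.06 for all genes. With no filter on dim probes it was -0.22 and -0.33, so the ER genes then lay above all genes.

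**Figure D1:**
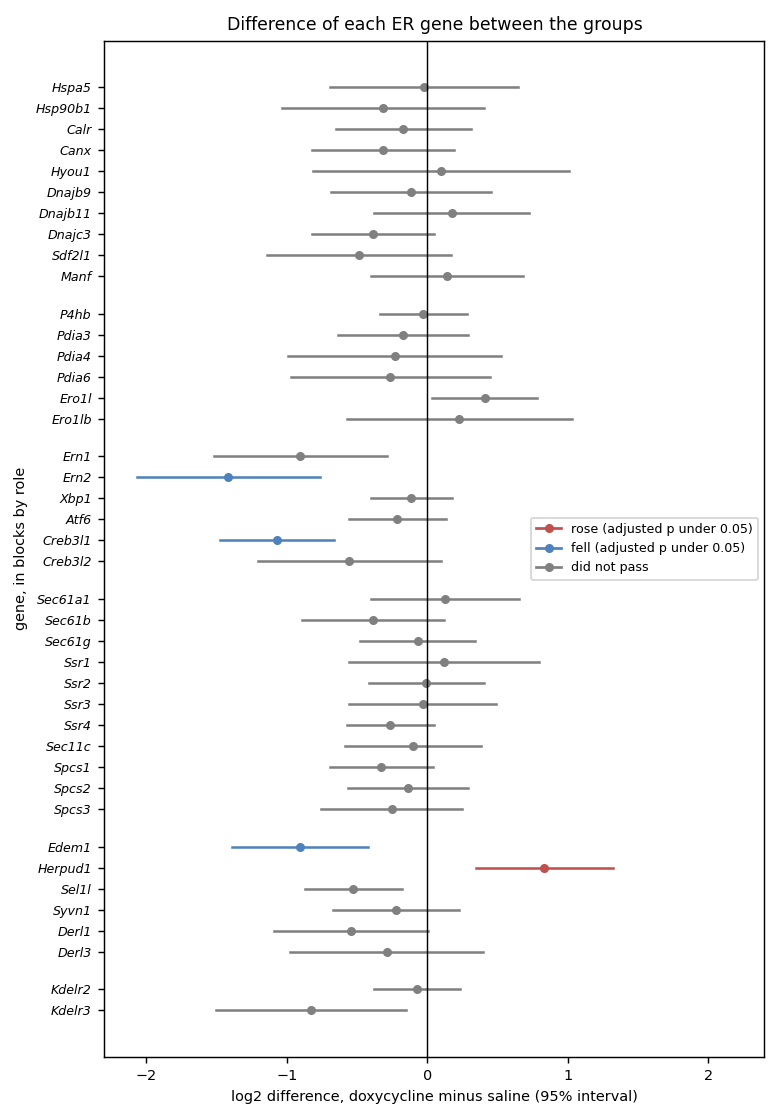
Log2 difference between doxycycline and saline for each of the 41 ER genes, in blocks by role from chaperones at the top to retrieval receptors at the bottom. Points are limma estimates and lines their 95% intervals (n = 4 each). Herpud1 is the gene called higher, Ern2, Creb3l1 and Edem1 are those called lower, and most other intervals cross 0.

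The ER sensors and their transcription factors held 2 of the 4 calls, both falls among 6 genes, while 7.89% of all genes fell. An unadjusted p under 0.05 was found for 3 of the 6, against 31.4% of all genes. All 6 lay below 0 (median log2 difference -0.73), against 48.7% of all genes. With 6 genes such shares are coarse, and they were not tested. Ern2, the IRE1 of mucous epithelium, read -1.93, -1.70, -1.76 and -2.23 with doxycycline, against -0.34, -0.63, 0.22 and -1.20 with saline. The groups did not overlap, and saline 3 was the highest array. Ern2 was 2.67-fold lower (95% interval 1.70 to 4.19, limma adjusted p = 0.0150, n = 4 each). Over the 19 alternatives its log2 difference ran from -1.84 to -0.93, with an adjusted p of 0.00272 to 0.0471. The scanner files give its probe no genome position. Creb3l1, which encodes OASIS, an ER-anchored factor cut and released under stress, read 1.42, 1.52, 1.51 and 1.21 with doxycycline, against 2.41, 2.12, 2.61 and 2.79 with saline. The 4 doxycycline arrays lay close together and all below the lowest saline array. The fall was 2.10-fold (95% interval 1.58 to 2.78, adjusted p = 0.00673), on a probe at chr2:91822506-91822565 in mm9, and kept its call in all 19 alternatives (adjusted p 0.00171 to 0.0382).

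Ern1, the IRE1 found in most cells, read -0.64, -1.03, -1.27 and -1.71 with doxycycline, against -0.36, -0.69, -0.25 and 0.26 with saline. Only doxycycline 1 reached into the saline range, just above saline 2. The difference was -0.91 (SE 0.273) and missed the threshold (adjusted p = 0.0578), although 6 of 19 alternatives put it past the threshold. Among them were the fits that left out doxycycline 1 (-1.08, adjusted p = 0.0337) and saline 2 (-1.05, adjusted p = 0.0447). Xbp1, whose transcript IRE1 splices into the form that encodes the active factor, read 6.38, 6.53, 6.37 and 6.40 with doxycycline, against 6.59, 6.50, 6.49 and 6.57 with saline. Its difference was -0.11, and the 95% interval of its fold (0.757 to 1.13) leaves room for only a small change of the total transcript. The single Xbp1 probe gives no separate value for the spliced form. Atf6, the sensor cleaved in the Golgi, differed by -0.22 (adjusted p = 0.371), and Creb3l2, the closest relative of Creb3l1 among these genes, by -0.56 (adjusted p = 0.220). For Creb3l2 the low arrays were doxycycline 3 and 4, at -2.06 and -1.70, against -1.18 to -0.70 over all saline arrays.

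**Figure D2:**
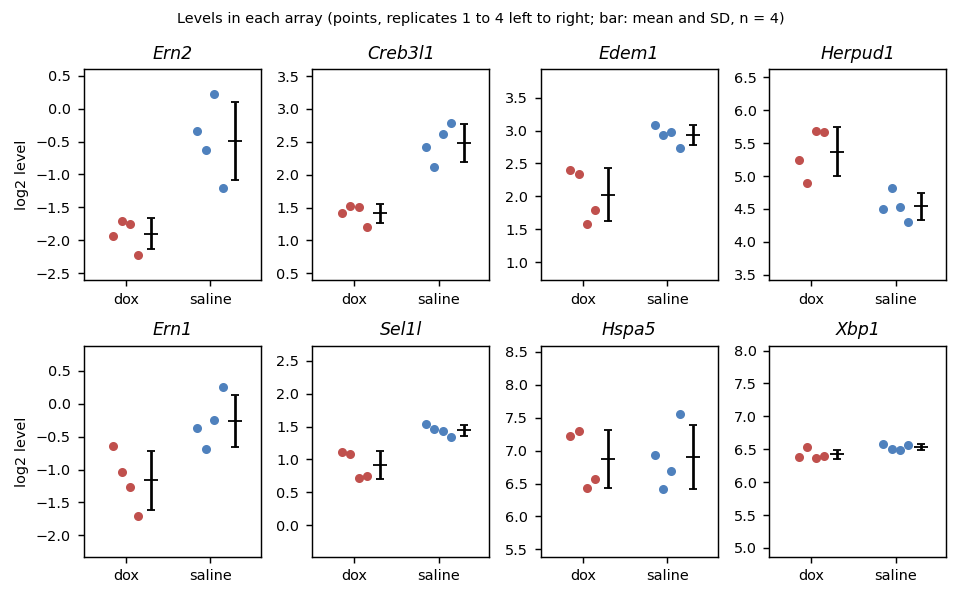
Levels of Ern2, Creb3l1, Edem1, Herpud1, Ern1, Sel1l, Hspa5 and Xbp1 on each array, doxycycline left and saline right, on a log2 axis of the same span in each panel. Points are arrays in the order of replicates 1 to 4, and bars are the mean and SD (n = 4). The groups separate for Ern2, Creb3l1, Edem1, Herpud1 and Sel1l and overlap for Ern1, Hspa5 and Xbp1.

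Degradation genes held the other 2 calls, in opposite directions, among 6 genes, while 5.94% of all genes rose and 7.89% fell. An unadjusted p under 0.05 was found for 3 of these 6, against 31.4% of all genes. Herpud1 encodes a membrane protein that gathers the degradation complex, and is itself a stress target. It read 5.25, 4.90, 5.68 and 5.67 with doxycycline, against 4.50, 4.81, 4.54 and 4.30 with saline. Doxycycline 3 and 4 were the high arrays, and doxycycline 2 stood just above saline 2. The rise was 1.78-fold (95% interval 1.27 to 2.49, adjusted p = 0.0346). The call was lost in 7 of 19 alternatives. These were the fits without doxycycline 3 or 4 (adjusted p = 0.0975 and 0.0910) and without saline 1, 3 or 4 (0.0895, 0.0883 and 0.0615). The others were those with the replicate number as a block (0.0951) and without both saline 2 and 4 (0.0864).

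Edem1, which takes glycoproteins out of the folding cycle for disposal, read 2.39, 2.33, 1.58 and 1.79 with doxycycline, against 3.08, 2.93, 2.99 and 2.73 with saline. The lowest values were again on doxycycline 3 and 4, the same arrays on which Herpud1 was highest. The fall was 1.88-fold (95% interval 1.34 to 2.62, adjusted p = 0.0253). It lost its call in 5 of 19 alternatives: without doxycycline 3 or 4 (adjusted p = 0.0647 and 0.0706), without saline 1 or 3 (0.0764 and 0.0728), and without both saline 2 and 4 (0.0662). Sel1l, the scaffold of the HRD1 ubiquitin ligase, read 1.12, 1.08, 0.72 and 0.75 with doxycycline, against 1.54, 1.47, 1.43 and 1.33 with saline. Its groups did not overlap, and its difference of -0.53 (SE 0.153) fell just short of the threshold (adjusted p = 0.0516), passing it in 7 of 19 alternatives, among them those without doxycycline 1 (0.0427) or saline 4 (0.0488). Syvn1, the HRD1 ligase itself, differed by -0.22 (adjusted p = 0.478). The derlin genes Derl1 and Derl3, whose proteins help move clients back across the membrane, differed by -0.54 and -0.29 (adjusted p = 0.163 and 0.555). The Derl1 probe used lies in mm9 on chromosome 12, another chromosome than that of the gene in the RefSeq table, so its signal may include a copy. The other Derl1 probe, on chromosome 15, gave -0.67 (SE 0.528), with doxycycline 2 at -0.11 and the other 7 arrays at 2.34 to 2.60.

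The chaperones gave no call in limma in either direction, and 0 of 10 had an unadjusted p under 0.05, against 31.4% of all genes. Hspa5, the Hsp70 of the ER lumen known as BiP and the usual readout of ER stress, read 7.22, 7.30, 6.43 and 6.57 with doxycycline, against 6.94, 6.41, 6.70 and 7.56 with saline. Arrays of both groups cover the same range, and the fold of 0.984 has a 95% interval of 0.619 to 1.56. Hsp90b1, the Hsp90 of the ER called GRP94, read 7.10, 6.64, 6.08 and 6.46 with doxycycline, against 6.97, 6.20, 6.77 and 7.61 with saline. Its difference of -0.31 (SE 0.318) lies within that spread. The lectin chaperone genes Calr and Canx, which hold glycoproteins during folding, differed by -0.17 and -0.32 (adjusted p = 0.618 and 0.367). Hyou1, a nucleotide exchange factor of BiP, differed by 0.10 with the widest SE of the 41 (0.403), since saline 4 read -0.27 and the other saline arrays -2.21 to -1.69. The largest differences among the chaperones were those of Sdf2l1, a partner of ER J-proteins (-0.49, adjusted p = 0.283), and Dnajc3, a BiP co-chaperone (-0.39, adjusted p = 0.204). Dnajb9, Dnajb11 and Manf, a BiP-bound secreted stress factor, lay between -0.12 and 0.17.

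The factors released by the stress sensors are known to bind short promoter elements, so these are shown beside the values. Of the 41 genes, 30 matched an entry among RefSeq promoters (GRCm38.p6), and the 250 bases before each start were searched on both strands. The ER stress element was searched as CCAAT and CCACG with any 9 bases between them, its second form (ERSE-II) as ATTGG and CCACG with any 1 base between them, and the unfolded protein response element (UPRE) as TGACGTGG. None of the matches overlapped another. The first stood in 9 of 30 ER promoters (30.0%) and in 0.113% of all 32851 promoters, the second in 1 and 0.0304%, and the third in 1 and 0.563%. A match describes letters, not a bound site. The motifs were picked as known elements of ER stress genes, after the files had been seen. These shares therefore describe the list and are no independent test of it. The stretches below are those of the riser Herpud1, of the chaperones Hspa5, Hsp90b1 and Calr, of the disulphide enzyme Pdia6, and of Syvn1, read along the gene with the motif in capitals.
Herpud1 (chr8:94386367-94386397, + strand): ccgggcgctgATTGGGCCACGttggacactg
Hspa5 (chr2:34772015-34772053, + strand): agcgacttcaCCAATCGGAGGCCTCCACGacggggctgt
Hsp90b1 (chr10:86705523-86705666, - strand): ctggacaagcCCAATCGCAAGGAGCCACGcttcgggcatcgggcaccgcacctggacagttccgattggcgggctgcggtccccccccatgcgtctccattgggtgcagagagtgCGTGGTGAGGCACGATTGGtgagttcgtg
Calr (chr8:84847065-84847103, - strand): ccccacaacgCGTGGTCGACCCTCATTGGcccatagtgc
Pdia6 (chr12:17266481-17266519, + strand): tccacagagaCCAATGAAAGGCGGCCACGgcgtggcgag
Syvn1 (chr19:6046522-6046560, + strand): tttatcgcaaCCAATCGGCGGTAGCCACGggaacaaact

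Herpud1 alone among the 30 held the ERSE-II letters in this window, 52 to 42 bases before its start. The 9 genes with the first element (Calr, Canx, Derl3, Dnajc3, Ero1lb, Hsp90b1, Hspa5, Pdia6 and Syvn1) held 0 calls in limma (0 at an unadjusted p under 0.05, against 19.5% of the 41 ER genes and 31.4% of all genes), with a median log2 difference of -0.26 and a range of -0.39 to 0.23. Kdelr3 was the gene with the UPRE letters, 30 to 23 bases before its start. The 19 genes with an entry and none of these letters had a median of -0.17 and 1 call, the fall of Edem1. The 11 genes without an entry could not be searched. They had a median of -0.10 and 2 calls, the falls of Ern2 and Creb3l1. Over all genes tested 5.94% rose and 7.89% fell. With groups this small the counts are coarse, and differences between them were not tested.

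**Figure D3:**
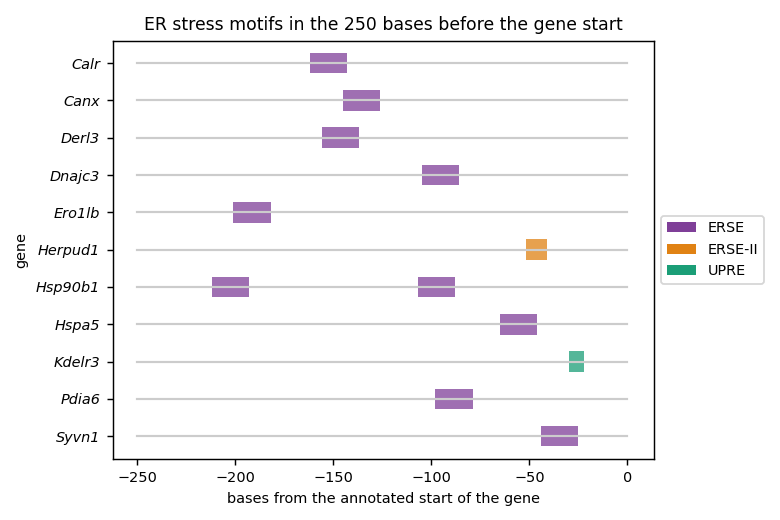
Positions of the 3 searched ER stress motifs in the 250 bases before the annotated start of the ER genes that hold them, with the start at 0 on the right. Coloured bars are matches on either strand. Hsp90b1 holds 2 matches and the other genes 1 each.

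The ER genes also varied together between arrays of the same group. Within saline, array 4 was the highest for 28 of 41 ER genes (68.3%, against 42.8% of all genes) and array 2 the lowest for 30 (73.2%, against 34.0%). Within doxycycline, array 3 was the lowest for 24 (58.5%, against 24.7%) and array 2 the highest for 20 (48.8%, against 23.0%). Among the 9 genes with the first element, saline 4 was highest in 7 and saline 2 lowest in 7. Doxycycline 1 and 2 both stood above doxycycline 3 and 4 in 7 of the 9, and in 20 of all 41 ER genes. This last split was not counted over all genes, so it cannot be called particular to ER genes. The median SD of the ER genes was 0.25 over doxycycline arrays and 0.34 over saline arrays, against 0.29 and 0.29 over all genes. These arrays were singled out after their values were seen, and what sets them apart was not tested.

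**Figure D4:**
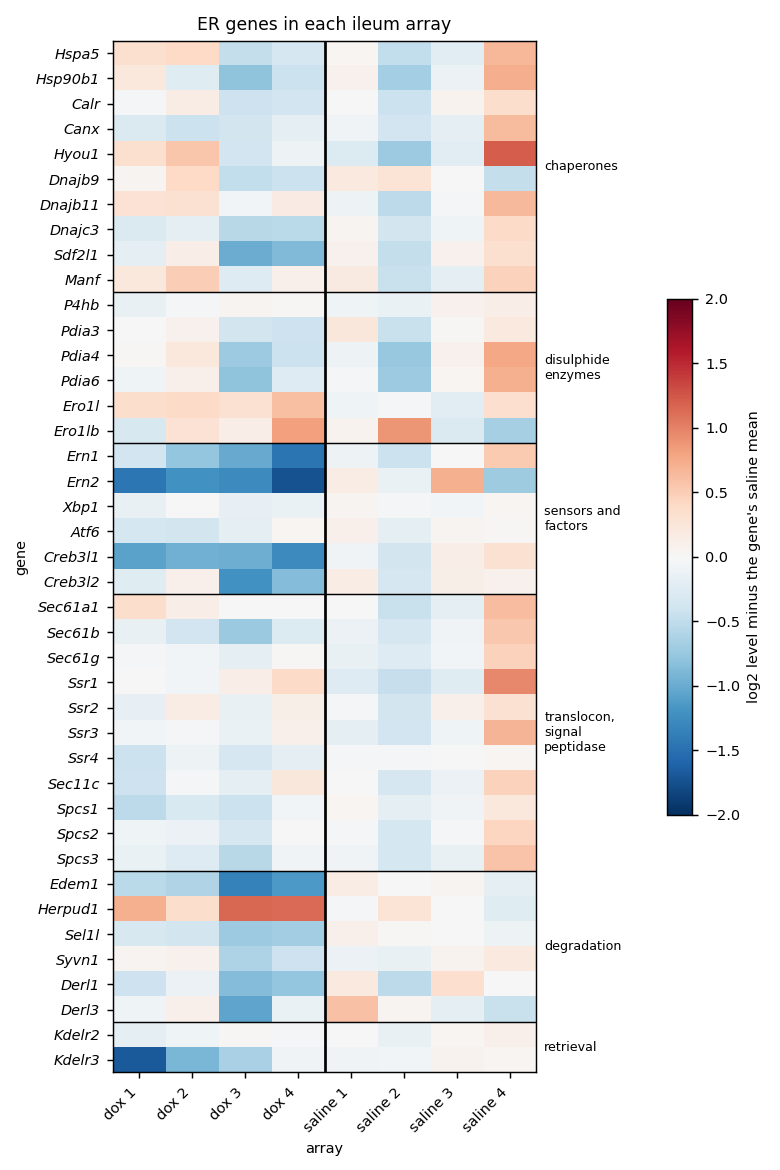
Level of each ER gene on each array relative to the gene's saline mean (log2, red higher, blue lower), with doxycycline arrays left of the line and saline arrays right. Rows are grouped by role. Ern2 and Creb3l1 are low on all doxycycline arrays, Herpud1 is high on them, and many chaperone and translocon rows are red on saline 4.

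Disulphide enzymes also gave no call (1 of 6 at an unadjusted p under 0.05, against 31.4% of all genes). P4hb, the first protein disulphide isomerase, had a fold of 0.981 with a 95% interval of 0.792 to 1.21. Its arrays ran from 5.37 to 5.56 with doxycycline and from 5.38 to 5.64 with saline, so the groups overlap almost fully. Pdia3, which works with the lectin chaperones, and Pdia4 and Pdia6 differed by -0.17, -0.23 and -0.26 (adjusted p = 0.604, 0.676 and 0.605). Ero1l, the oxidase that recharges these enzymes and now named Ero1a, read -0.76, -0.73, -0.82 and -0.52 with doxycycline, against -1.20, -1.14, -1.34 and -0.78 with saline. Doxycycline values were on the high side, with saline 4 inside their range. The difference of 0.41 (SE 0.165) missed the threshold (adjusted p = 0.129) and passed without saline 4 (adjusted p = 0.0437) and with array weights (0.0214). Its probe lies in mm9 on chromosome 7, another chromosome than that of the gene in the RefSeq table. The second oxidase gene, Ero1lb (now Ero1b), differed by 0.23 (SE 0.353).

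In the import machinery 0 of 11 genes were called in limma (0 at an unadjusted p under 0.05, against 31.4% of all genes), and log2 differences ran from -0.39 to 0.12. Sec61a1, the pore of the channel, read 6.48, 6.26, 6.13 and 6.11 with doxycycline, against 6.14, 5.67, 5.95 and 6.74 with saline. Its fold was 1.09 (95% interval 0.756 to 1.57), with the saline arrays the more spread. The small channel subunit genes Sec61b and Sec61g differed by -0.39 and -0.07 (adjusted p = 0.268 and 0.831). All 3 Sec61b probes lay below 0 (-0.39, -0.20 and -0.31), and the Sec61g probe and 1 of the Sec61b probes lie on other chromosomes than their genes. Among the translocon-associated TRAP subunits, Ssr4 read 5.19, 5.52, 5.29 and 5.44 with doxycycline, against 5.60, 5.61, 5.63 and 5.67 with saline. The groups did not overlap, yet the difference of -0.26 missed the threshold (adjusted p = 0.223). Ssr1, Ssr2 and Ssr3 differed by 0.12, -0.01 and -0.03 (adjusted p = 0.821 to 0.986). The dimmer Ssr1 probes gave -0.64 (SE 0.335) and -0.04 (SE 0.268), and neither passed the threshold. Signal peptidase genes Sec11c, Spcs1, Spcs2 and Spcs3 differed by -0.10, -0.33, -0.14 and -0.25, with adjusted p from 0.204 to 0.778.

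KDEL receptors fetch escaped chaperones back from the Golgi. Kdelr2 differed by -0.07, with a fold of 0.950 (95% interval 0.769 to 1.17). Kdelr3 read -2.10, -1.34, -1.08 and -0.50 with doxycycline, against -0.50, -0.48, -0.35 and -0.39 with saline. Saline arrays lay close together, and doxycycline arrays spread downward from them. The difference of -0.83 (SE 0.299) missed the threshold (adjusted p = 0.0977) and passed without doxycycline 4 (-1.08, adjusted p = 0.0400) or with normexp background (0.0397).

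Other genes of the pathway were taken from 6 lists, of which 178 genes were tested, and 3 rose (1.69%, against 5.94% of all genes) and 18 fell (10.1%, against 7.89%). An unadjusted p under 0.05 was found for 48 (27.0%, against 31.4% of all genes), and the median log2 difference was -0.16 against 0.02. The share that fell is thus close to that of all genes. Among 30 other sensors and regulators, 3 rose and 4 fell. Creb3l4, another ER-anchored relative of Creb3l1, read 0.35, 0.67, -0.62 and -0.16 with doxycycline, against 2.96, 2.51, 2.82 and 2.52 with saline. It was 6.25-fold lower with a wide gap between the groups (adjusted p = 8.08e-04). Bhlha15, the secretory cell factor MIST1, was 2.79-fold lower (adjusted p = 0.0254), and Nfya, a subunit of the factor that binds CCAAT boxes, 1.72-fold lower (adjusted p = 0.0270). Ppp1r15a, which restores translation after stress and is known as GADD34, read 3.22, 3.44, 4.04 and 3.73 with doxycycline, against 1.51, 2.65, 1.91 and 2.06 with saline. That is a rise of 2.97-fold (adjusted p = 0.00763) with the groups apart. Named after their values were seen, the other calls were the rises of Atf3 (adjusted p = 0.0310) and of Mbtps2 (0.0407), and the fall of Eif2ak3, the gene of PERK (just under the threshold). The Mbtps2 probe was clear of background on 1 saline array of 4. Its call was lost with normexp background (adjusted p = 0.856), and that of Eif2ak3 in 13 of 19 alternatives.

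Among 29 other chaperones and disulphide enzymes 5 fell and 0 rose. For this and the lists below, the shares over all genes were 7.89% lower and 5.94% higher. Agr2, a disulphide isomerase that mucin production needs, read 6.29, 6.78, 5.67 and 6.19 with doxycycline, against 7.49, 7.18, 7.73 and 7.92 with saline. It was 2.54-fold lower (adjusted p = 0.0119), with no overlap. Pdia5, Txndc5 and Cnpy2 fell by 0.82, 0.72 and 0.84 on the log2 scale, as did Fkbp2 (by 0.56), named after its value was seen. Of 28 other degradation genes, 5 fell and 0 rose. Erlin1, part of a complex that targets ER membrane proteins, was 2.09-fold lower (adjusted p = 0.00251) and its partner Erlin2 1.68-fold lower. The ubiquitin ligase genes Rnf5 and March6 were 1.80-fold and 1.77-fold lower, and Tmub1, named after its value was seen, 1.42-fold. In the N-glycosylation list 2 of 33 fell and 0 rose: Gfpt1, the first enzyme of hexosamine synthesis, 1.66-fold, a call lost with the mean of its probes (adjusted p = 0.550), and Alg9 1.59-fold. Of 19 targeting genes Tram2 fell (1.84-fold), and of 39 vesicle genes Tmed3 (1.67-fold). Creb3l4, Erlin1, Ppp1r15a, Agr2 and Rnf5 kept their calls whichever single array was left out. The other 16 of these 21 genes did not: 16 were lost without doxycycline 3, 15 without each of doxycycline 4, saline 1 and saline 3, 5 and 6 without doxycycline 1 and 2, and 3 and 6 without saline 2 and 4 (highest adjusted p 0.134).

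Markers of some secretory cell types moved with some of these genes. Beside the counts of called markers below, 7.89% of all genes fell and 5.94% rose. In the goblet cell list 16 of 22 tested markers fell and 1 rose. Their summed linear level ran from 807 to 1163 on doxycycline arrays and from 2015 to 2400 on saline arrays. The sum weighs bright markers most, and the brightest were Zg16, Tff3 and Clca1. Of these Tff3 and Clca1 were called lower. Zg16 was not (limma adjusted p = 0.159), with saline 1 inside the doxycycline range. Of 20 enteroendocrine markers 8 fell and 0 rose, with sums of 90.9 to 139 with doxycycline and 221 to 253 with saline. Of the brightest there, Sct and Gcg were called lower and Cpe was not (limma adjusted p = 0.680). Plasma cell markers held 3 falls and 1 rise among 18, with overlapping sums of 141 to 246 with doxycycline and 206 to 278 with saline. The falls were Tnfrsf17, Jchain and Txndc5, which is also in the chaperone list above. The rise was Prdm1 (log2 difference 0.95, limma adjusted p = 0.0174), named after its value was seen. Plasma cell markers leaned upward, with a median log2 difference of 0.24 and 6 of 18 below 0. Paneth cell markers held 3 falls and 0 rises among 18, also with overlapping sums (3181 to 4579 with doxycycline and 3492 to 4365 with saline). In these 4 lists no tested marker was short of background on every array of a group. The part of these cell types in the falls of Ern2, Creb3l1, Creb3l4, Agr2 and Edem1 was not tested. In whole tissue, fewer cells of a type and less RNA per cell cannot be told apart.

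Absorptive cells and the other lists moved less or differently. Here too the counts stand beside 5.94% of all genes that rose and 7.89% that fell. Enterocyte markers held 1 rise and 0 falls among 30, with sums of 2063 to 3316 with doxycycline and 2141 to 2664 with saline. Smooth muscle markers held 1 fall among 15 and T cell markers 1 fall among 15, with overlapping sums. Neutrophil markers held 4 rises and 1 fall among 10, with sums of 133.8 to 180 with doxycycline and 127 to 133.0 with saline. The brightest of the 10, which the sums weigh most, were Csf3r and Itgam. Neither was called (limma adjusted p = 0.282 and 0.227). For 2 of the 10 no saline array was well above background.

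**Figure D5:**
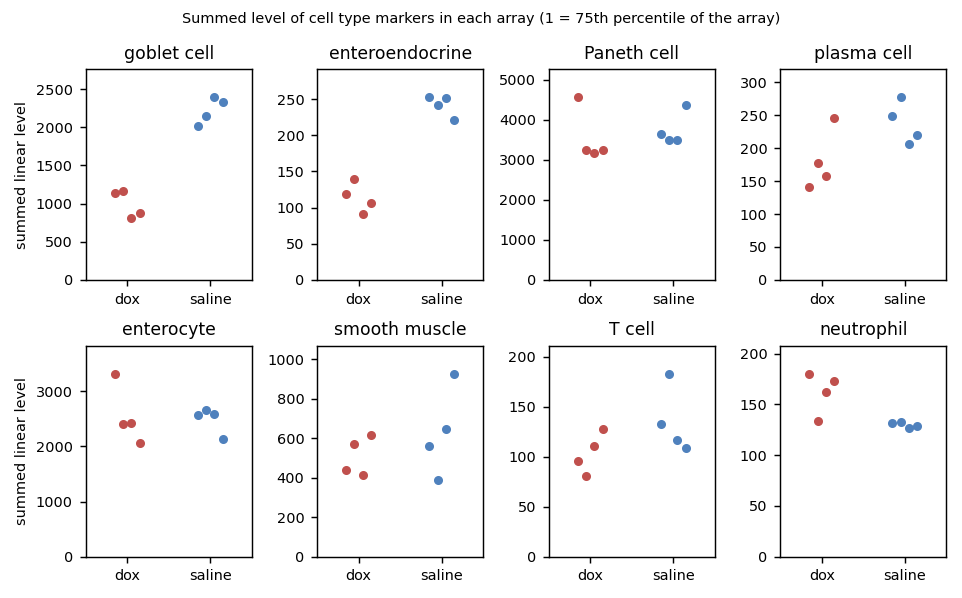
Summed linear level of the tested markers of 8 cell types on each array, doxycycline left and saline right, on axes that start at 0, where 1 equals the array's 75th percentile. Points are arrays in the order of replicates 1 to 4. Goblet and enteroendocrine sums are lower on all 4 doxycycline arrays, and Paneth, plasma, enterocyte, smooth muscle and T cell sums overlap.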

How the data were processed

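The deposited scanner files hold spot intensity, and the submitters' processing notes name Agilent Feature Extraction 10.7.3.1. Background was subtracted from the processed intensity and spatial trends removed, array by array, per the file headers, and RNA input was 200 ng per the labels. The deposited value table holds log2 values that equal the log2 processed intensity minus a constant for each array, so its scale, centring and direction are known. Its column medians were -3.77, -3.92, -3.83 and -3.81 with doxycycline and -3.97, -3.70, -3.79 and -3.86 with saline.

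Control spots and outlier spots (169 to 259 per array) were left out, no probe spot was saturated, and spots of a probe were averaged. Probes well above background on at least 4 of 8 arrays were kept, and the brightest stood for its gene. Doxycycline was tested against saline in R 4.3.3 by limma 3.58.1 (two-sided, Benjamini-Hochberg over 21368 genes), a procedure tested on simulated data. Only 8 arrays limit the precision. The members, lists and alternatives were chosen with earlier results of these data known. Named genes are all members, up to 4 called genes with the smallest p per pathway list, the 3 brightest markers where given, and others said to be named after their values were seen. Promoters are from RefSeq, and symbols follow the array. The motifs and the window before the start were chosen after the files had been seen. The bare CCACG was searched too and stood in 28.3% of all promoters, and the bases after the start were searched, where Dnajb11 also holds the ERSE-II letters.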

Additional observations from a re-analysis of the deposited data

Results flagged for a closer look

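In 5 of 124 groups of 4 arrays that were examined, 1 array stood far from the other 3, by Dixon's criterion for 4 values, and chance gives about 1 in 20. Xbp1 was high on doxycycline 2 (6.53, others 6.37 to 6.40). Creb3l2 was low on saline 2 (-1.18, others -0.76 to -0.70). Ssr1 was high on saline 4 (6.15, others 4.74 to 4.96). Erlin2 was low on saline 2 (2.67, others 3.13 to 3.15). March6 was high on doxycycline 2 (1.03, others 0.62 to 0.69).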

How the results depend on the processing

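Of 779 combinations of an ER gene and an alternative, 750 kept their side of the threshold, 17 gained a call and 12 lost one, and no called value changed sign. Rises and falls among the ER genes numbered 1 and 3, and became 1 and 6 with normexp background, 1 and 5 with no filter on dim probes or with probes well above background on all arrays, 2 and 5 with array weights, and 0 and 2 without saline 2 and 4. Leaving out single arrays gave 0 to 1 rises and 2 to 5 falls. Other pathway genes numbered 3 and 18, and became 10 and 37 with array weights, 2 and 11 without saline 2 and 4, and 1 and 21 with a common floor, with 1 to 7 and 4 to 17 when single arrays were left out. All genes called numbered 1269 higher and 1687 lower, and became 2775 and 3211 with array weights, 1850 and 11809 with no filter, 1091 and 1027 without saline 2 and 4, with 647 to 1543 and 729 to 1870 when single arrays were left out. With no filter the median over all genes was -0.33, against 0.02 in the main fit, and lay below the ER genes' median of -0.22. Where a setting drops arrays it has fewer samples, and for the others the cause was not tested.

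The values showed no pairing of arrays by replicate number. Deviations of same-numbered arrays correlated at 0.00602, -0.0437, 0.113 and 0.0125, and 1 of 8 arrays correlated best with its own number. With so few pairs this check cannot exclude a pairing. With the replicate number as a block, 0 ER genes rose and 3 fell, 2 other pathway genes rose and 4 fell, and 788 genes rose and 905 fell overall. All ER genes were well above background on all arrays, but the lowest level that counted as such differed by group. It ran from -4.9 to -4.5 on doxycycline arrays and from -3.1 to -2.6 on saline arrays. The dimmest ER genes came near the saline values, as Hyou1 did on saline 2 (-2.21). What this adds to their differences was not tested.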
